A study of Homo sapiens with 9 samples.

Results

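The non-coding transcriptome of untreated SNU16 cells was described from 3 of the 9 libraries of a series on drug and oxidant responses. SNU16 is an established human gastric carcinoma line, known for amplified copies of the MYC and FGFR2 regions. The 3 control libraries carry the labels WT genotype, un-treated and 24 h, and the cells were kept in 1640 medium with 10% fetal bovine serum. Total RNA was extracted with Trizol and went into NEBNext Ultra Directional libraries, a chemistry that keeps the strand of the RNA. The other 6 libraries, from cells given 5-fluorouracil or hydrogen peroxide, were not used here. Nothing in the labels says that the 3 replicates came from separate cultures, so the spread between them may be technical.

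The deposited table gives FPKM, the number of fragments scaled to transcript length and to the mapped fragments of the library, for 90652 transcripts under 28717 gene identifiers. It lists mostly non-coding transcripts. In GENCODE V29, 14687 of the gene identifiers are long non-coding RNA (lncRNA) genes, with 48403 listed transcripts, and 9149 are protein-coding genes with 26949 listed retained-intron transcripts between them. These 9149 genes are referred to as hosts. The FPKM of a gene's lncRNA or retained-intron transcripts were summed, and a gene was counted as detected when its sum reached 0.5 FPKM in all 3 libraries. Sequencing depth is unknown, since the smallest value above 0 is 1e-06 FPKM, and no counting interval can be given.

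An lncRNA is a transcript that is longer than the small RNA classes and has no recognised protein product. Some, such as MALAT1 and NEAT1, stay in the nucleus, some act as scaffolds or decoys for proteins, and others are mainly the spliced remainder of transcripts whose introns give rise to small nucleolar RNAs (snoRNAs), the guides of ribosomal RNA modification. A retained-intron transcript keeps a sequence that is normally spliced out. Such transcripts are often held in the nucleus or degraded, and splicing factor genes are known to use intron retention to limit their own output. Retained-intron models also share exons with the spliced mRNA of their gene, so reads of the mRNA can enter their values. How much they did was not tested.

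A few sequences carry results that follow. The first set holds transcription starts of snoRNA host genes, the most often detected name class. Like ribosomal protein genes, some snoRNA host genes start their RNA with a C followed by pyrimidines, the terminal oligopyrimidine start. The RefSeq promoter table (GRCh38.p14) was read for a C followed by 4 pyrimidines exactly at the annotated start, on the strand of the gene. This start was found in 5 of 22 detected snoRNA hosts with a promoter entry (22.7%), in 3.98% of 703 promoters of detected lncRNA genes with a symbol and in 4.07% of all 35116 promoters. The 22 include CYTOR, which lacks this start and whose small RNA entry in V29 is a microRNA gene. In the 20 bases before and 30 bases from the start, capitals mark the C and its pyrimidine run. The 5 detected genes with this start are followed by SNHG29 and GAS5, the most abundant snoRNA hosts, whose annotated starts lack it. No match says only that these letters do not stand at that annotated start. The stretch shown for GAS5 lies wholly outside its listed transcripts, which reach position 173868882, so it does not show where those begin.
ZFAS1 (chr20:49278622-49278671, plus strand): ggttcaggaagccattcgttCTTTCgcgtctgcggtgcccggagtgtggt
SNHG5 (chr6:85678704-85678753, minus strand): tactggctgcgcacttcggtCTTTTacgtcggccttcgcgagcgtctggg
SNHG12 (chr1:28581844-28581893, minus strand): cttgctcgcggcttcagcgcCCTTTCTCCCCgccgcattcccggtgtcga
SNHG4 (chr5:139274081-139274130, plus strand): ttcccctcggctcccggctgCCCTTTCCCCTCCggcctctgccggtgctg
SNHG19 (chr16:2155329-2155378, minus strand): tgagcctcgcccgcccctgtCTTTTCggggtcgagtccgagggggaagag
SNHG29 (chr17:16438967-16439016, plus strand): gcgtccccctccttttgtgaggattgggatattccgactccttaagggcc
GAS5 (chr1:173869016-173869065, minus strand): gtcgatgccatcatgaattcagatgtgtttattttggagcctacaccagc

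The second set is a near-identical pair, CYTOR and MIR4435-2HG, both on chromosome 2 and both among the most abundant lncRNA genes. Their leading transcripts, of 529 and 514 bases, aligned over 515 columns with 5 substitutions and 1 unpaired base (98.8% identity). The stretch of 60 bases with the most substitutions holds 2 of them, in capitals, at positions 234 to 293 of CYTOR-201 and 219 to 278 of MIR4435-2HG-203.
CYTOR: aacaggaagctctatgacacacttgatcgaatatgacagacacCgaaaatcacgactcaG
MIR4435-2HG: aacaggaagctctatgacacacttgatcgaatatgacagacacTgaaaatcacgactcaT

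The listed FPKM of the 3 libraries summed to 56532.9, 56558.3 and 57674.8, so none stood apart in its total. Retained-intron transcripts of hosts made up 62.2% ± 0.37 (SD, n = 3) of it, and lncRNA genes 15.5% ± 0.16. Transcripts of protein-coding genes that V29 lacks held 10.8% ± 0.42, transcripts that the authors assembled under protein-coding genes 5.38% ± 0.27, and genes absent from V29 3.59% ± 0.12. Cell type markers were read as the sum of every listed transcript of the gene. Of 12 markers of gastrointestinal epithelium 8 were listed, and all 8 were detected, from KRT8 at 228 FPKM to MUC13 at 0.551, just above the floor. KRT8, KRT18, KRT19, EPCAM and CDH1 are general to simple epithelium, and the gut keratin KRT20, from another list, was at 0 in all 3 libraries. The leukocyte markers PTPRC and CD3E were listed at 0 in all 3 libraries, as were the endothelial markers VWF and KDR and the fibroblast markers COL1A2, COL3A1 and PDGFRA. COL1A1 was at 0.374 FPKM ± 0.14, below the floor.

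Most listed lncRNA genes gave no signal. Of 14687, 7674 (52.3%) were listed at 0 in all 3 libraries and 1813 (12.3%) were detected. Single libraries reached the floor for 2237, 2303 and 2351 lncRNA genes, and 2835 did so in at least 1 library. The median detected lncRNA gene stood at 1.60 FPKM, 84 genes reached 10 FPKM in all libraries and 4 reached 100. Hosts were detected far more often: 5116 of 9149 (55.9%), with a median of 2.99 FPKM, 590 at 10 FPKM or more and 19 at 100 or more. The difference between the classes was not tested.

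MALAT1, a nuclear speckle lncRNA on chromosome 11, was the most abundant lncRNA gene, at 1223, 1135 and 1164 FPKM. It alone held 13.3% of lncRNA FPKM, and its single-exon transcript MALAT1-202, of 8708 bases, carried 96.0% of the gene's sum. TALAM1, a locus known as the antisense partner of MALAT1, read 4.99, 12.04 and 33.0 FPKM; since no source used here says whether strand entered the quantification, the division of reads between overlapping loci is uncertain. ENSG00000276232 followed at 386, 395 and 397 FPKM, 4.44% of lncRNA FPKM. It is a single-exon locus with all 248 of its bases inside the small Cajal body RNA gene SCARNA10, so reads of that small RNA and of this locus cannot be told apart. SNHG29, a snoRNA host, read 245, 251 and 250 FPKM. These 3 loci kept their order in every library, with no overlap between the ranges of neighbours.

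GAS5, a snoRNA host known as a growth arrest transcript, read 112.9, 119.2 and 126.9 FPKM. NEAT1, the scaffold of nuclear paraspeckles, read 76.0, 123.7 and 88.6 FPKM, with 95.2% of its mean in the long transcript NEAT1-202 of 22743 bases. The ranges of GAS5 and NEAT1 overlap, so their order is within the spread. MUC20-OT1 stood at 77.1, 79.6 and 80.8 FPKM, a sum of 142 listed transcripts in which the leading one held 14.5%. NORAD, a cytoplasmic lncRNA, was at 88.6 and 87.2 FPKM in replicates 1 and 2 and at 22.9 in replicate 3. Its value rests on the single NORAD transcript listed.

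**Figure D1:**
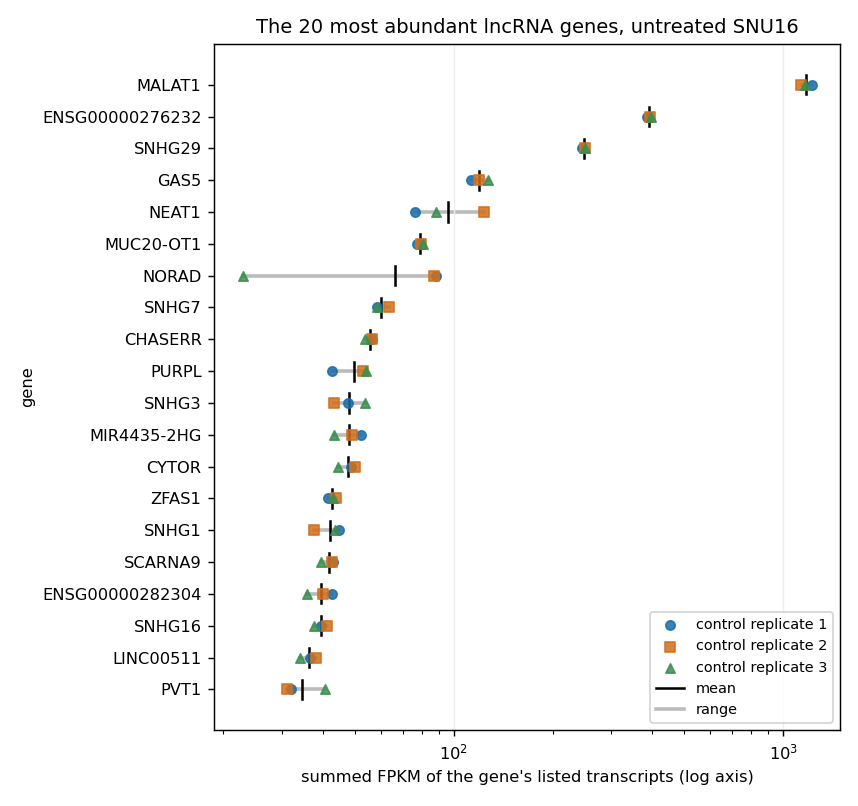
Summed FPKM (log axis) of the 20 most abundant lncRNA genes in the 3 control libraries, with points for libraries, a grey bar for the range and a black tick for the mean. MALAT1 sits between 1135 and 1223 FPKM, above all others, and NORAD shows the widest range, from 22.9 to 88.6 FPKM.

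Below MALAT1, ENSG00000276232 and SNHG29 the order changed between libraries. In replicate 3 NORAD, at 22.9 FPKM, fell below SNHG7 and CHASERR. SNHG7 read 58.6, 63.5 and 58.6 FPKM, and CHASERR, an lncRNA next to CHD2 that is known to restrain that gene, read 56.5, 56.4 and 53.8. PURPL, a transcript known as a p53-regulated suppressor of p53, read 42.6, 53.0 and 54.2 FPKM. SNHG3 at 47.7, 43.4 and 53.6 FPKM, MIR4435-2HG at 52.4, 49.03 and 43.3 and CYTOR at 48.9, 50.1 and 44.4 had overlapping ranges and cannot be ranked. For the last pair, whose sequences are given above, the split of reads between the copies is uncertain, and their sum was 101, 99.1 and 87.7 FPKM. Of the 20 genes with the highest values in each library, 17 were common to all 3, and of the top 100, 82 were.

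Some lncRNA genes known from cancer work were among the top 20 of those with a symbol. LINC00511 read 36.7, 38.2 and 34.2 FPKM over 107 transcripts. PVT1, the lncRNA next to MYC on 8q24, read 32.1, 31.2 and 40.6 FPKM over 190 transcripts, its leading one holding only 9.59%. COMETT, an antisense transcript at the MET locus, read 29.6, 26.1 and 33.9 FPKM. Within 2 Mb of the middle of PVT1 on chromosome 8, 5 of 20 listed lncRNA genes were detected, against 12.3% of all listed lncRNA genes. PCAT1 came next there, at 8.40, 12.9 and 13.8 FPKM, and CASC19, PRNCR1 and CCAT2 stood between 0.665 and 1.42 FPKM on average. CASC11 and CASC8 in the same window were far below the floor, at 0.0147 and 0.0192 FPKM. Within 2 Mb of the middle of FGFR2 on chromosome 10, 2 of 16 listed lncRNA genes were detected, a share near that 12.3%, with ENSG00000278484 the higher at 2.03 FPKM. FGFR2 itself, a growth factor receptor gene, gave 0.395, 0.0985 and 0.445 FPKM from 1 listed retained-intron transcript, with a mean below the floor, while its neighbour TACC2 gave 17.8, 16.5 and 16.7.

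The counts of the lncRNA lists stand against the 12.3% of all listed lncRNA genes that were detected. Lists and members were chosen with earlier results of these data known, so the counts are a description. The nuclear and abundant list is also named for abundance. Of the nuclear and abundant regulatory lncRNAs 11 of 14 listed members were detected, and together they held 17.1% of lncRNA FPKM, most of it MALAT1. JPX, an activator of X inactivation, read 23.2, 28.2 and 25.1 FPKM, and NUTM2A-AS1 21.2, 22.6 and 26.5. Of the snoRNA hosts 25 of 29 were detected, with a median of 16.0 FPKM among them against 1.60 over all detected lncRNA genes, and they held 9.38% of lncRNA FPKM. These counts include CYTOR, also a member of the list before, whose small RNA entry in V29 is the microRNA gene MIR4435-1. ZFAS1, a host of C/D box snoRNAs, read 41.5, 43.9 and 43.0 FPKM, SNHG1 44.8, 37.6 and 43.6, and SNHG16 39.6, 41.1 and 37.7. Of the microRNA hosts 13 of 22 were detected, and after MIR4435-2HG the highest were MIRLET7BHG, host of let-7 microRNAs, at 8.22 FPKM ± 1.4 and DLEU2, host of miR-15a and miR-16-1, at 7.12 ± 1.1.

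Of 16 listed lncRNAs known from gastric cancer 9 were detected. After LINC00511 and PVT1 came HOXA-AS2, from the HOXA cluster, at 6.26, 4.34 and 3.35 FPKM and LINC01133 at 5.76, 3.24 and 1.44. HOTAIR, the HOXC transcript known for recruiting chromatin repressors, read 1.68, 1.82 and 1.54 FPKM. None of 11 listed members of the imprinted locus list was detected, against that 12.3%. NAV2-AS1, whose imprinting was not checked, is counted among them. H19, the best known of them, read 0.664, 1.24 and 0.486 FPKM, just under the floor in 1 library, and SNHG14 stood at 0.0628 FPKM. TERC, the RNA component of telomerase and the single listed member of the structured small RNAs, read 0, 0.115 and 0.0930 FPKM.

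By name, the 29 genes with SNHG-type symbols were the most often detected class (23 genes, 79.3%), at a median of 15.5 FPKM and 8.66% ± 0.21 of lncRNA FPKM. Antisense names gave 333 detected genes of 1790 (18.6%) and 14.0% ± 0.47 of the FPKM, divergent names 149 of 581 (25.6%) and 5.22% ± 0.15, and LINC names 172 of 2196 (7.83%) and 7.01% ± 0.02. Genes without a symbol were the largest class: 961 of 9355 were detected (10.3%) and they held 36.8% ± 0.39, ENSG00000276232 among them. By V29 gene class, lincRNA genes held 40.6% of lncRNA FPKM, antisense genes 27.6%, processed transcripts 16.1% and sense intronic genes 13.0%. The last share includes ENSG00000276232, the class's highest locus.

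Of the detected lncRNA genes outside chromosome Y, 720 (39.7%) overlapped a protein-coding gene on the opposite strand only, 470 (25.9%) overlapped one on the same strand and 622 (34.3%) overlapped none. The median was 1.60 FPKM in each of these groups. The 622 genes with no such overlap held 43.0% ± 0.69 of the FPKM of these detected genes, the opposite-strand group 33.0% ± 0.60 and the same-strand group 24.0% ± 0.23. Without MALAT1, an alternative chosen after seeing the data, the shares were 32.9%, 38.8% and 28.2%, so the excess of the first group over its share of genes rests on that gene. A small RNA gene of V29 overlapped 132 detected loci (7.28%) on the same strand, and these held 39.8% ± 0.63 of the FPKM of detected genes. MALAT1, whose small RNA entries cover 1.72% of its locus, and ENSG00000276232 are among them. Without MALAT1 the share was 29.2%, and without both it was 24.8%. In 4 detected loci, small RNA genes covered at least 50% of the bases. Besides ENSG00000276232 these were ENSG00000259001, which overlaps the RNase P RNA gene RPPH1, at 15.4, 23.6 and 14.7 FPKM, SNHG25 at 1.99 FPKM ± 0.32, and ENSG00000262202, which overlaps SNORD3D, a U3 snoRNA gene. That last locus read 1.02, 7.34 and 18.4 FPKM, a different level in every library.

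The lncRNA signal was concentrated in few genes. The top 10 genes held 26.5% of lncRNA FPKM and the top 100 held 46.5%, and 134 genes were needed to reach 50%. Within single libraries 123, 133 and 139 genes were needed. Without MALAT1, an alternative chosen after seeing the data, the top 10 held 15.8% and 223 genes were needed. Host signal was spread over more genes: the top 10 held 9.28%, the top 100 held 26.1%, and 512 genes made up 50%. Hosts are also the larger class, with 5116 detected against 1813 lncRNA genes, so these gene numbers do not share a scale. At the lower end, 1897 lncRNA genes and 3181 hosts made up 90%.

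**Figure D2:**
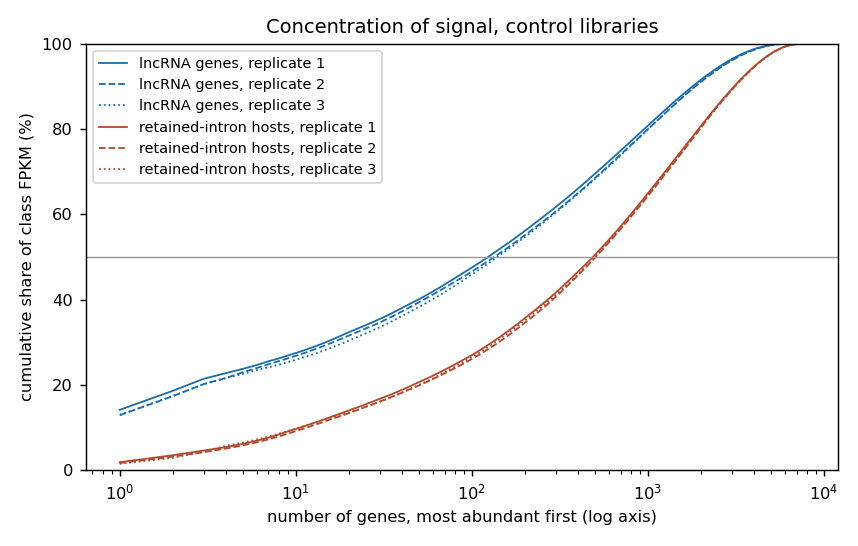
Cumulative share of class FPKM (%) against the number of genes taken from the most abundant down (log axis), for lncRNA genes (blue) and retained-intron hosts (red), with 1 line style per control library. The lncRNA curves start near 13% with MALAT1 and cross 50% at 123 to 139 genes, and the host curves start near 1.7% and cross 50% at 487 to 506 genes.

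ENO1 and GAPDH were the hosts with the highest mean retained-intron FPKM. Their ranges overlap, and in replicate 3 the ribosomal protein gene RPS18 stood at 512.8 FPKM against 512.4 for GAPDH. ENO1, the glycolytic enzyme enolase, read 648, 583 and 527 FPKM, and GAPDH, another enzyme of the pathway, 574, 524 and 512. LDHA, which makes lactate, read 259, 259 and 189 FPKM, and PKM, pyruvate kinase, 124.3, 114.1 and 104.7. The leading models of the 20 most abundant hosts ranged from 1 exon (VMP1-216, of 4325 bases) to 9 exons (ENO1-203, of 2548 bases, and EEF1G-203, of 2496), with a median of 4.5. Of the 20, 5 had 8 or more exons and 10 had 4 or fewer, that of EEF1A1, with 3 exons in 792 bases, among them. Over all hosts, 11723 of 26949 listed models had 4 or more exons, and these held 52.8% ± 0.59 of host FPKM. The leading models of the 100 most abundant hosts had a median of 1809 bases, against 738 for all listed retained-intron models. The former takes 1 leading model per host and the latter every listed model, so the gap does not reflect host abundance alone.

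The detection counts of the host lists stand against the 55.9% of all hosts that were detected. These lists too were chosen with earlier results of these data known, so their counts are a description. Of 27 listed translation factors all were detected and 5 were among the 100 most abundant hosts. EEF1A1, which brings aminoacyl-tRNA to the ribosome, read 389, 365 and 494 FPKM from retained-intron transcripts and 986, 496 and 633 FPKM when every listed transcript of the gene was summed. EEF1G read 256, 242 and 253 FPKM. EIF1, which helps find the start codon, read 72.8, 16.6 and 74.2 FPKM, low in replicate 2 alone. PABPC1, the poly(A)-binding protein, read 33.8, 121 and 75.1 FPKM, and its other listed transcripts 112, 76.7 and 113. Cytosolic ribosomal protein genes were detected in 63 of 65 cases, held 5.76% of host FPKM and had 16 members in the top 100 (24.6%, against 1.09% of all hosts). RPS18 read 274, 293 and 513 FPKM, highest in replicate 3, and RPL4 268, 195 and 132, highest in replicate 1. Mitochondrial ribosomal protein genes were lower: 30 of 40 were detected, none was in the top 100, and the highest, MRPL38, stood at 12.3 FPKM ± 2.7.

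**Figure D3:**
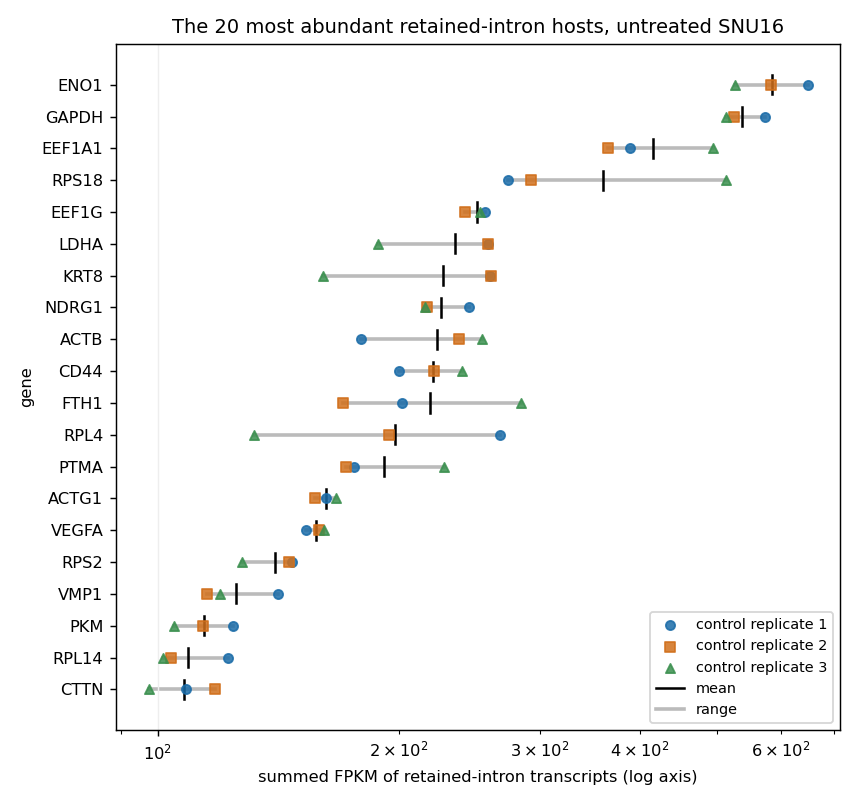
Summed retained-intron FPKM (log axis) of the 20 most abundant hosts in the 3 control libraries, with points for libraries, a grey bar for the range and a black tick for the mean. ENO1 and GAPDH lie at 512 FPKM or more in every library, and RPS18 ranges from 274 to 513 FPKM.

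Of 5 listed simple epithelial keratins 4 were detected, against 55.9% of all hosts. KRT8, a simple epithelial keratin, read 260, 261 and 161 FPKM, and its partner KRT18 67.7, 74.2 and 68.8. KRT8 and KRT18 overlap at their ends on chromosome 12, where the division of reads is uncertain. KRT19 read 23.8, 22.6 and 18.7 FPKM, and KRT7 stood at 5.38 ± 0.33. Other hosts of the top 20 have varied roles. CD44, the hyaluronan receptor, read 200, 221 and 240 FPKM, with 62.9% in CD44-225. VEGFA, the angiogenic factor, read 153, 159 and 161 FPKM, and NDRG1, a gene known for its response to low oxygen, 245, 217 and 216. CTTN, the actin-binding protein cortactin on 11q13, read 109, 118 and 97.5 FPKM over 8 models. FTH1, the heavy chain of ferritin, read 202, 171 and 284 FPKM.

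Genes of the splicing machinery are known for regulated intron retention. Of the SR factors 10 of 11 listed hosts were detected, against 55.9% of all hosts, and none was in the top 100, which 1.09% of all hosts make up. TRA2B read 33.5, 35.6 and 37.2 FPKM, SRSF9 36.4, 30.5 and 33.1, and SRSF5 19.96, 19.61 and 19.30. CCNL1, a cyclin of splicing-related kinases, was higher, at 103, 104 and 87.5 FPKM over 16 models. CLK1, a kinase of SR proteins whose retained introns are well studied, read 11.99, 22.23 and 12.57 FPKM. All 5 listed members of the CLK and L-type cyclin list were detected, with CLK4 lowest at 2.34 FPKM, and CCNL1 was the single one in the top 100. Of the hnRNP genes 14 of 15 were detected, led by HNRNPL at 92.3, 84.8 and 85.3 FPKM and HNRNPH1 at 52.4, 55.4 and 51.3. Of these 15 genes 3 were in the top 100 (20%), the third being HNRNPU. All 16 listed cytosolic aminoacyl-tRNA synthetases were detected, TARS1 highest at 35.9, 30.6 and 50.1 FPKM. Of the ZNF genes 93 of 194 (47.9%) were detected, a share below the 55.9% of all hosts, and ZNF207 led with 32.3 FPKM ± 3.4.

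Replicate spread was measured as the SD of log2(FPKM + 0.5) over the 3 libraries. Its median was 0.19 for detected lncRNA genes and 0.23 for detected hosts. The highest library was over 2 times the lowest in 234 lncRNA genes (12.9%) and in 942 hosts (18.4%). The median was not highest at the lowest level, where the added 0.5 lowers the log2 SD most and the floor in all libraries limits it. On unlogged values the median coefficient of variation of lncRNA genes was highest there, at 20.1% for 0.5 to 1 FPKM against 19.6% for 1 to 2 FPKM. For hosts it was 22.8% and 25.3%. For lncRNA genes the SD of log2 values is therefore no sign that low genes replicate better. For hosts both measures were lower at 0.5 to 1 FPKM than at 1 to 2 FPKM, and the floor limits the lowest level. For lncRNA genes the median SD was 0.18 at 0.5 to 1 FPKM, 0.21 at 1 to 2 FPKM, 0.15 at 10 to 50 FPKM and 0.06 in the 9 genes at 50 FPKM or more, and for hosts it was 0.20, 0.27, 0.18 and 0.15 at the same levels. Of those 9 lncRNA genes 1 was over 2 times apart (11.1%), against 5.26% at 10 to 50 FPKM. Across genes, which share library and annotation and are not replicates, Pearson's r of log2 values between pairs of libraries lay between 0.941 and 0.943 for lncRNA genes and between 0.927 and 0.929 for hosts. No library accounted for most of the divergent genes. Among lncRNA genes over 2 times apart, replicate 1 alone was high in 31 and low in 54, replicate 2 in 33 and 48, and replicate 3 in 43 and 25.

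**Figure D4:**
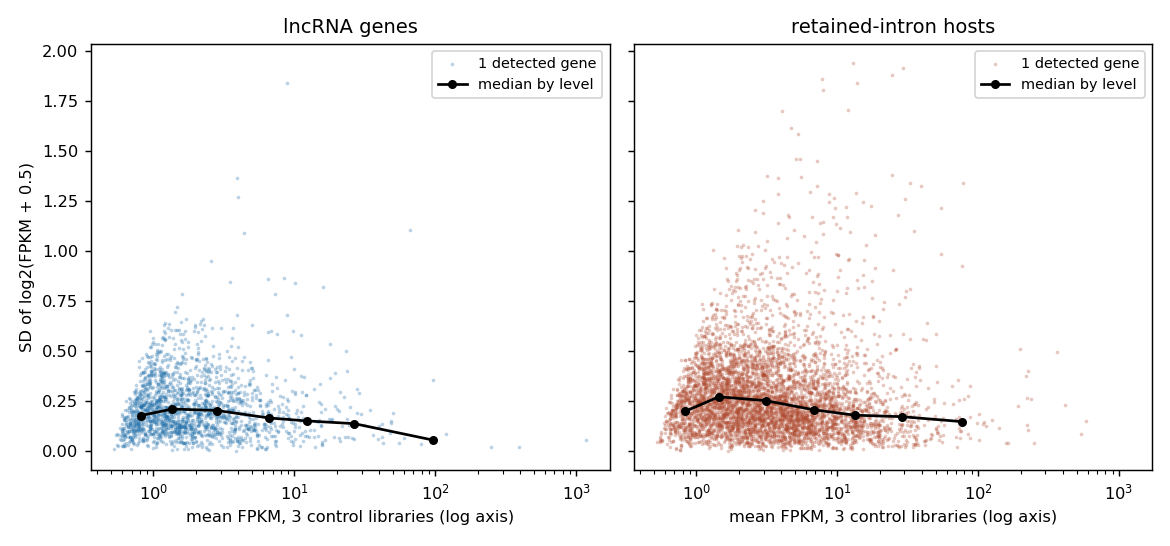
SD of log2(FPKM + 0.5) over the 3 control libraries against mean FPKM (log axis) for each detected lncRNA gene (left) and host (right), with the median by level in black. The lncRNA medians are 0.18 at 0.5 to 1 FPKM, 0.21 at 1 to 2 FPKM and 0.06 at 50 FPKM or more. The added 0.5 lowers the SD most at low FPKM.

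The most and least variable genes at 5 FPKM or more were named by rule, so their SDs are a description. Among lncRNA genes the largest SD was that of IER3-AS1, at 0.0737, 2.93 and 14.3 FPKM. Its models differed between libraries, with IER3-AS1-202 carrying replicate 2 and IER3-AS1-203 replicate 3. NORAD came second with 1.11. HCP5, a transcript of the HLA region, read 2.68, 8.16 and 8.75 FPKM, low in replicate 1, where the overlapping locus ENSG00000288587 read 4.32 FPKM against 0.472 and 0 in the others. EBLN3P read 17.4, 5.29 and 7.49 FPKM, high in replicate 1. DANCR, an snoRNA host known for keeping cells undifferentiated, read 7.28, 19.1 and 21.4 FPKM, low in replicate 1. The smallest SDs were those of SLC38A4-AS1 at 5.51, 5.45 and 5.42 FPKM, LINC00265, SNHG29, GOLPH3-DT and SLC25A25-AS1, with SDs between 0.012 and 0.025 on the log2 scale.

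Among hosts, MED21, a Mediator subunit, read 9.74, 10.5 and 0.000883 FPKM and ARHGAP5 11.3, 0.420 and 9.31. Each rests on 1 listed single-exon model. PHB2, a prohibitin, read 7.33, 30.1 and 1.58 FPKM, with 28.1 FPKM of replicate 2 in a single model that was at 0 in replicate 3. SET, a histone chaperone, read 73.7, 6.06 and 8.06 FPKM. The transcript SET-211, which is not of the retained-intron class, moved the other way, at 3.42, 66.8 and 75.2 FPKM, and the sum over all listed SET transcripts was 77.2, 72.8 and 83.3 FPKM. H3-3B, a histone H3.3 gene, read 61.1, 6.52 and 5.47 FPKM, nearly all of it in H3-3B-203. HNRNPU, a nuclear matrix protein gene, fell outside this ranking's top but shows the same kind of gap, at 52.7, 53.9 and 10.4 FPKM, with HNRNPU-202 at 38.9, 39.6 and 0.949. It was named as a member of the hnRNP list. At the other end RPUSD4, SF3B3, HDAC1, SDCBP2 and DVL1 had SDs between 0.0035 and 0.0123 on the log2 scale, with RPUSD4 at 7.47, 7.50 and 7.47 FPKM.

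Among those at 0.5 FPKM or more in all 3 libraries, single models varied slightly more than gene sums. The median SD was 0.20 for detected lncRNA transcripts and 0.25 for detected retained-intron transcripts, against 0.19 and 0.23 for genes. The highest library was over 2 times the lowest in 17.3% and 24.2% of these transcripts, against 12.9% and 18.4% of genes. Among lncRNA transcripts at 0.5 FPKM or more in some library, 671 of 4482 (15.0%) were at 0 in another, and among retained-intron transcripts 385 of 15194 (2.53%). The median SD in these wider sets was 0.32 for lncRNA and 0.30 for retained-intron transcripts, and no gene value is given at that filter. Of 879 detected lncRNA genes with several listed transcripts, 438 (49.8%) had the same leading transcript in all 3 libraries, and of 4170 such hosts 2302 (55.2%) did. RPL4 gives an example: RPL4-203 read 188, 0 and 0 FPKM and RPL4-214 read 6.55, 127 and 100. SNHG29 gives another, with SNHG29-225 steady at 82.2, 81.6 and 81.7 FPKM while SNHG29-241 read 41.9, 82.2 and 72.1, so the leading model differed between libraries although the gene's sum varied by 1.26% (CV).

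By chromosome, lncRNA FPKM followed the number of listed lncRNA genes only loosely. Chromosome 11 held 18.4% ± 0.46 of lncRNA FPKM and 4.90% of listed lncRNA genes, with 71.9% of its FPKM from MALAT1. Without MALAT1, chosen after seeing the data, it held 5.96% of the remaining FPKM. Chromosome 17 came next with 9.07% ± 0.15 against 5.60% of listed genes, 31.0% of it from SNHG29, and 18.2% of its listed lncRNA genes were detected, against 12.3% over all chromosomes. Chromosome 12 held 8.21% ± 0.05, which includes ENSG00000276232, and chromosome 1 held 7.71% ± 0.05, led by GAS5. The lowest shares were those of chromosomes 21 (0.997% ± 0.04), 18 (1.38% ± 0.10), 22 (1.85% ± 0.05) and 4 (1.85% ± 0.07). On chromosome 4, 5.63% of listed lncRNA genes were detected, and DANCR was its highest. The SD over libraries was 0.173 percentage points or less on each of chromosomes 1 to 22 and X other than 11 and 20. Chromosome 20, where NORAD leads, read 3.04%, 2.93% and 2.30%.

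**Figure D5:**
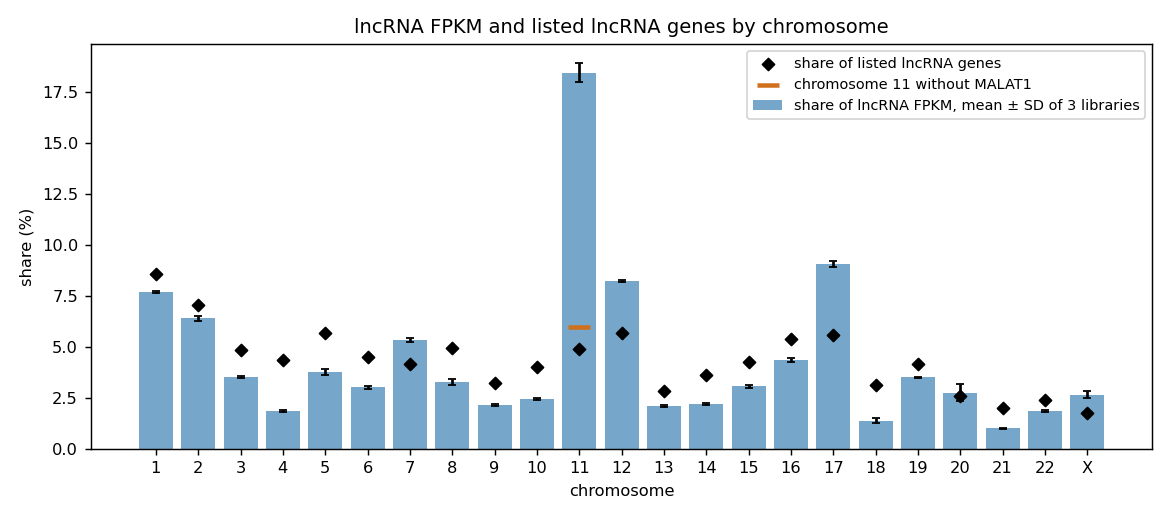
Share of lncRNA FPKM by chromosome (bars, mean ± SD of 3 control libraries, %) beside the share of listed lncRNA genes (black diamonds, %). Chromosome 11 reaches 18.4% and falls to 5.96% without MALAT1 (orange dash), and chromosome 17 stands at 9.07% against 5.60% of listed genes.

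In windows of 10 Mb, signal was again concentrated. Of 309 windows with listed lncRNA genes, the highest 5 held 27.0% of lncRNA FPKM, the median window held 0.163% and 25 had no detected gene. The window of chromosome 11 with MALAT1, NEAT1 and SNHG1 held 15.4%, at 22 detected of 100 listed genes. The first window of chromosome 12, with ENSG00000276232, held 4.76%, and the window of chromosome 17 with SNHG29 held 3.79%. Most chromosomes were led by a named gene of under 50 FPKM, such as DLEU1 on chromosome 13 (24.6, 25.2 and 26.9 FPKM), DUXAP8 on 22 (22.4, 27.0 and 24.0), DLGAP1-AS2 on 18 (22.6, 15.4 and 31.3) and LINC00649 on 21 (6.22, 3.82 and 9.36). SNHG5 led chromosome 6 at 35.3, 24.6 and 23.6 FPKM.

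The highest single value in the table belonged to neither class. A transcript assembled by the authors and named as antisense to SOS2 read 2299, 2469 and 2191 FPKM, 4.08% ± 0.28 of all listed FPKM, more than MALAT1. It spans chr14:49853553-50202103, or 348551 bases with 15 V29 genes, and begins 63 bases before RN7SL3 and spans RN7SL2. Both encode 7SL RNA, the abundant RNA of the signal recognition particle, on the minus strand. The table gives neither its exons nor its strand, and the part of 7SL reads in its value was not tested.

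The 475 assembled transcripts together held 5.74% ± 0.26 of listed FPKM, and 324 of them were detected. The next highest was an antisense transcript at BTD, the biotinidase gene, at 73.9, 49.5 and 75.5 FPKM. Among loci on scaffolds, one of 872 bases on KI270733.1 read 53.2, 1.51 and 0 FPKM, present in replicate 1 almost alone. A locus on KI270544.1 with 2 models read 41.9, 46.3 and 49.4 FPKM in sum. Among annotated genes that V29 lacks, ENSG00000291060 on chromosome 16 was highest, at 43.8, 106 and 108 FPKM.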

How the data were processed

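RNA of 3 untreated SNU16 libraries was described. The authors deposited 1 FPKM value per transcript and library. HISAT2 2.0.5, StringTie and edgeR 3.22.5 and build GRCh38 are named without roles, per the submitters' processing notes. No source used here states the annotation release, the filters or the use of strand, which makes values of overlapping loci uncertain. Gene and transcript classes came from GENCODE V29, which holds 58221 of the 90652 transcripts. FPKM were summed per gene in Python 3.11.15 (pandas 2.3.3), unscaled. Detection needed 0.5 FPKM in all 3 libraries, and spread used log2(FPKM + 0.5). Values are mean ± SD of 3 libraries. No test was made, since 1 group is described. The procedure was tested on simulated data. Lists and members were chosen with earlier results of these data known. Genes with a symbol were named by rule: the 20 most abundant lncRNA genes and hosts, the leader of each chromosome, the 5 largest and smallest SDs at 5 FPKM or more, and up to 4 per list. Other genes, loci and single transcripts named were chosen after their values were seen. XIST and chromosome Y genes enter totals only. Some items are not reported here.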

Additional observations from a re-analysis of the deposited data

How the results depend on the processing

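No paired analysis was possible because a single group is described. Of 82 alternative values of the main results, 34 moved. Without transcripts assembled from the reads the lncRNA share of listed FPKM was 16.5%. With lncRNA transcripts taken by name, a rule that misses MALAT1, it was 14.9%, 330 genes made up 50%, the top 10 held 13.5% and chromosome 11 held 4.31%. Without the SOS2 antisense transcript, chosen after seeing the data, lncRNA genes held 16.2% and retained-intron transcripts 64.8%. Detected lncRNA genes numbered 3439 at a floor of 0.1 FPKM and 1126 at 1 FPKM. Among detected genes only, 84 lncRNA genes made up 50% and the top 10 held 29.8%. With the most abundant transcript of each gene the top 10 lncRNA genes held 29.6% and the top 10 hosts 12.1%, and with every listed transcript of a protein-coding gene the top 10 held 12.4%. Without MALAT1, 223 genes made up 50%, the top 10 held 15.8%, chromosome 11 held 5.96%, detected genes with no coding overlap held 32.9% and those with a small RNA gene 29.2%. Without ENSG00000276232 as well, the last 2 were 35.0% and 24.8%. The median lncRNA spread was 0.24 with a pseudocount of 0.1, 0.16 with 1, 0.17 with no filter on low values and 0.19 with median-of-ratios scaling. For hosts it was 0.27 and 0.20 with those pseudocounts and 0.22 with every listed transcript. Leaving out a library, which leaves an SD of 2 values, gave 0.15 to 0.16 for lncRNA genes and 0.18 to 0.19 for hosts.

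Leaving out a library moved 5 of 109 named genes by over 1.5 times. A mean of 3 libraries can rise by at most 1.5 times when 1 is left out. Only genes high in 1 library could therefore be counted, and genes low in 1 library, such as MED21, ARHGAP5, NORAD and HNRNPU, could not. IER3-AS1 was at 1.502 FPKM without replicate 3, EBLN3P at 6.39, SET at 7.06 and H3-3B at 5.99 without replicate 1, and PHB2 at 4.45 without replicate 2. Depth is unknown, so no value near 0 can be given a limit.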
